A study of Mus musculus with 4 samples.

Results

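The rod phototransduction cascade, from transducin to arrestin, was followed through the cell classes of the mouse retina by long-read single-cell RNA sequencing. Its 9 genes were taken by name: Gnat1, Gnb1 and Gngt1 (rod transducin), Pde6a, Pde6b and Pde6g (rod phosphodiesterase), Cnga1 and Cngb1 (rod cation channel) and Sag (rod arrestin). All 9 were in the deposited table, which lists 13452 Ensembl genes, and they accounted for 18 of its 44325 isoforms. The retinas were from male wild-type C57BL6/J mice, and no treatment or altered allele was given for any group. The 4 libraries comprised 2 labelled no enrichment, of which 1 was at postnatal day 40 and the other carried no age, 1 labelled CD73 enrichment at postnatal week 8, and 1 labelled CD90.2 enrichment at postnatal month 4. The labels' protocols describe removal of CD73-positive cells and positive selection on CD90.2, so the fraction that the CD73 library represents is not settled by its name. CD73 marks rods and CD90.2 (Thy1) marks ganglion cells, and the enriched libraries differ in age as well as in selection. The table gives 1 pooled column of read counts per class for rods, cones, bipolar cells (BC), amacrine cells (AC), Müller glia (MG) and retinal ganglion cells (RGC), with no column per library or mouse. Every value below is therefore 1 pooled measurement per class, no test between classes was possible, and the 95% intervals cover counting error only.

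In a rod outer segment, a light-activated visual pigment exchanges the nucleotide on transducin, a trimer whose α subunit then relieves the inhibitory γ subunits of the cGMP phosphodiesterase PDE6. The fall in cGMP closes the cyclic nucleotide-gated channel and hyperpolarises the rod, and arrestin binds the phosphorylated pigment to end its activity. Cones run the same steps with paralogous proteins, and loss of several of the rod genes is known to cause retinal degeneration or night blindness.

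Column totals ranged from 3509890 counts in RGC to 55437340 in rods. Levels are counts scaled to a column total of 1000000 (CPM), and a gene at 0 counts in RGC was taken as under 3 counts, or 0.855 CPM there. All 32 marker genes found in the table, out of 34 listed for the 6 classes, peaked in the class they mark. The 4 rod markers that are not cascade genes (Nrl, Nr2e3, Reep6 and Esrrb) summed to 2374 CPM in rods, 157 in MG, 116 in cones, 46.4 in BC, 23.0 in AC and 3.42 in RGC. The 3 listed pigment epithelium markers (Rpe65, Ttr and Best1) summed to 8501 CPM in the MG column, where 1 of them had 0 counts. Rod RNA in other columns can come from free RNA, from doublets or misassigned cells, or from the class itself, and these cannot be told apart in pooled columns.

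The cascade genes were all most abundant in rods, and 3 of them also stood high in cones. The 9 genes together made up 9.04% of all rod counts, 4.24% of cone counts, 0.955% of MG counts, 0.766% of BC counts and 0.0538% of AC counts, and 2 counts in RGC. All 9 were highest in the rod column, against 23.6% of the 13393 genes with at least 10 counts. Of the 9, 8 were at least 2-fold above every other column, against 4.87% of those genes. The exception was Sag, at 1.80-fold over cones, and Gngt1 and Pde6g passed the 2-fold line narrowly, at 2.04-fold and 2.00-fold over cones. Pde6g was at 1.99-fold under TMM scaling, and Gngt1 and Pde6g were at 1.70-fold and 1.67-fold under median-of-ratios scaling. The RGC column had 0 counts for 8 of the 9 genes, against 4.93% of the 1360 genes that reached 100 CPM in rods.

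**Figure D1:**
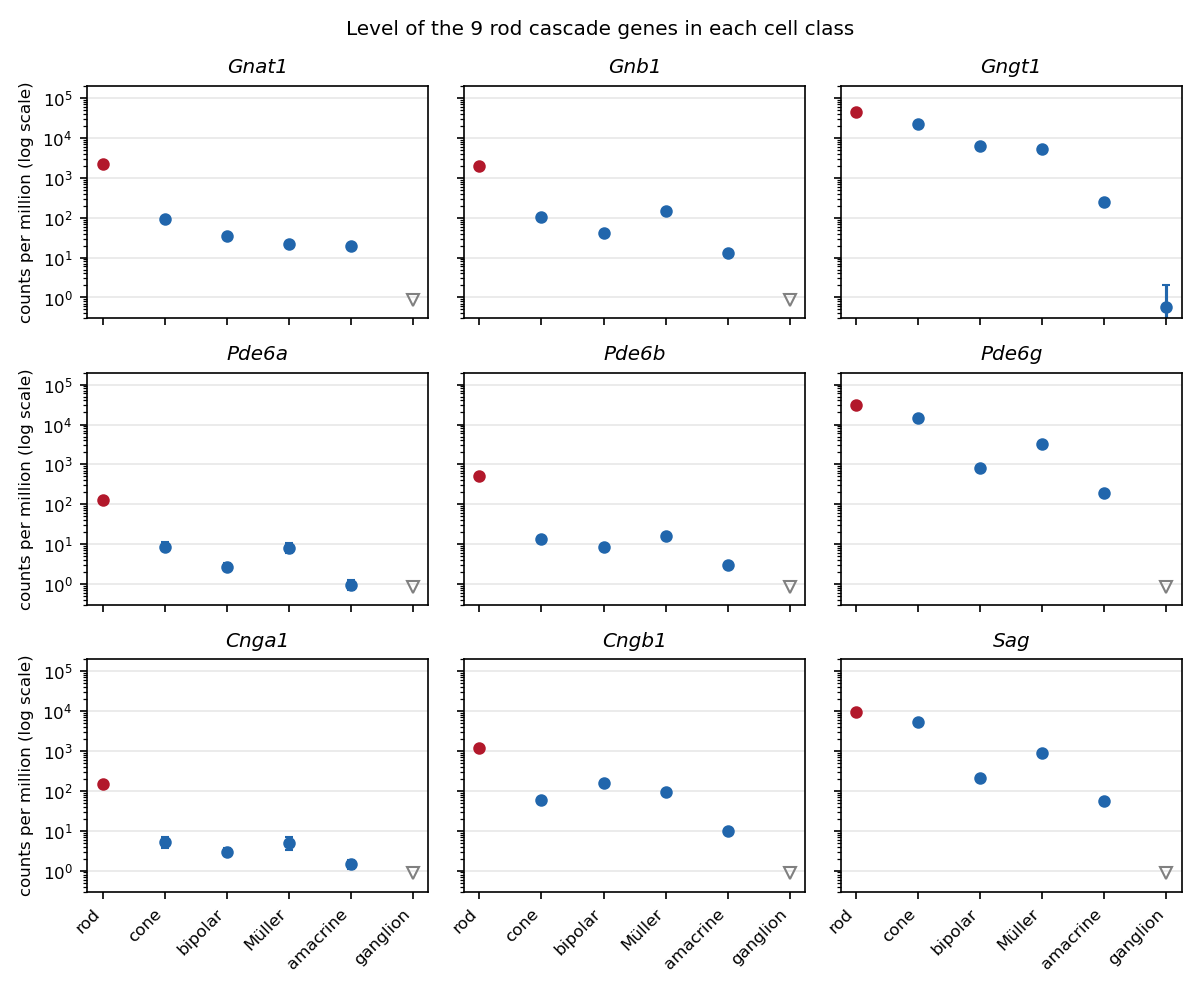
Level of each of the 9 genes in each class column, in CPM on a log scale, with 95% Poisson intervals; columns at 0 counts are drawn at the level of 3 counts. The rod points lie above all others for every gene, and the cone points of Gngt1, Pde6g and Sag are at 49.0%, 49.9% and 55.5% of the rod level.

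Transducin came from 3 genes with very unequal levels. Gnat1 encodes the rod α subunit, which carries the signal from pigment to phosphodiesterase (ENSMUSG00000034837.12, GRCm38, chr9:107674474-107679712, minus strand). It stood at 2221 CPM in rods, 90.6 in cones, 34.2 in BC, 21.8 in MG, 19.5 in AC and 0 in RGC. Rods were 24.5-fold above cones, the next column, and no other column reached 5% of the rod level.

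The table held 2 Gnat1 isoforms. The annotated 9-exon form, with 350 codons, had 120553 counts. The annotated ENSMUST00000194802.5, with 5310 counts, kept intron 4, which is 107 nt long. Its sequence is shown because it sets where the reading frame ends: the intron is in capitals, at chr9:107677010-107677140 on the minus strand with 12 exonic bases on each side.
Gnat1 intron 4: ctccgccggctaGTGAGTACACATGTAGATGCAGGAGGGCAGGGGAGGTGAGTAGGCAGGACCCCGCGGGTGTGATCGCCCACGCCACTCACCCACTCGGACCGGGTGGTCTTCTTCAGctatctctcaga
The last 2 bases of exon 4 and the first base of the kept intron form a TAG stop, so the frame from the annotated start closed after 149 codons. This form made up 4.25% of Gnat1 counts in rods, 3.17% in cones, 2.72% in BC and 2.45% in AC. In MG it had 0 of 134 counts, which allows a share of up to 2.72% (Clopper-Pearson).

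Gnb1 encodes the β subunit, which holds the γ subunit and is also used by G proteins of many other cells (ENSMUSG00000029064.15, chr4:155491361-155559269, plus strand). It stood at 2015 CPM in rods, 150 in MG, 105 in cones, 42.0 in BC, 13.2 in AC and 0 in RGC. Rods were 13.4-fold above MG. Neither of its listed isoforms was annotated, which held for 19.8% of all genes and for no other member of the cascade. The models joined annotated junctions in a combination that is not annotated. Both began with a 23-nt exon, chr4:155522636-155522658, which is the first exon of the annotated retained-intron transcript ENSMUST00000175688.1 and lies 31275 nt downstream of the gene's first annotated start. Both kept the annotated coding sequence of 340 codons. They differed by 3 nt at the acceptor of the last exon, beyond the stop codon, and the longer of the pair made up 17.8% of counts in rods, 18.2% in AC, 14.6% in cones, 14.5% in MG and 13.5% in BC. The Gnb1 level, including its 0 counts in RGC, therefore covers these models alone. No isoform from the gene's first annotated start was listed for it.

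Gngt1 encodes the small γ subunit that anchors transducin to the disc membrane (ENSMUSG00000029663.10, chr6:3993792-3997436, plus strand). It was the most abundant gene of the rod column by counts and per kilobase. It stood at 44574 CPM in rods, 21831 in cones, 6378 in BC, 5190 in MG and 247 in AC. The RGC column had 2 counts, or 0.570 CPM. The gene had a single isoform, an annotated model of 3 exons with 74 codons.

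The phosphodiesterase genes split the same way, with abundant γ transcripts and far scarcer catalytic subunits. Pde6a, the catalytic α subunit (ENSMUSG00000024575.16, chr18:61220315-61289924, plus strand), stood at 126 CPM in rods, 8.62 in cones, 7.99 in MG, 2.65 in BC, 0.953 in AC and 0 in RGC. Pde6b, the catalytic β subunit (ENSMUSG00000029491.7, chr5:108388391-108432397, plus strand), stood at 520.2 CPM in rods, 15.8 in MG, 13.1 in cones, 8.72 in BC, 3.03 in AC and 0 in RGC. Rods were 14.6-fold above cones for Pde6a and 32.9-fold above MG for Pde6b, the largest step to the next column among the 9 genes. Pde6b had 1 isoform, annotated, with 22 exons and 856 codons.

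The most abundant Pde6a isoform, with 4229 counts, was an unannotated model of the first 6 exons. Its last exon ran 34 nt into the following intron. The complete 22-exon transcript with 860 codons had 2996 counts. The complete form was 41.1% of Pde6a counts in rods, 47.6% in cones, 61.0% in BC, 51.0% in MG and 52.2% in AC, where the other columns held only 46 to 77 counts each. The difference between BC and rods was 20.0 percentage points (8.75 to 30.2, Newcombe interval), and the intervals for cones, MG and AC included 0.

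Pde6g encodes the inhibitory γ subunit, which holds the catalytic pair inactive in the dark (ENSMUSG00000025386.2, chr11:120447605-120453500, minus strand). It stood at 29998 CPM in rods, 14968 in cones, 3194 in MG, 815 in BC, 188 in AC and 0 in RGC, and it was the second most abundant gene of the rod column. The main annotated isoform had 1709219 counts and 87 codons. A second annotated isoform, ENSMUST00000141795.1, with 115424 counts, used an upstream donor that removes 124 nt of exon 2 and closes the frame after 34 codons. The coding part of exon 2 (chr11:120450467-120450612, minus strand) shows how little of it that isoform keeps, with the skipped bases in capitals.
Pde6g exon 2 from the start codon: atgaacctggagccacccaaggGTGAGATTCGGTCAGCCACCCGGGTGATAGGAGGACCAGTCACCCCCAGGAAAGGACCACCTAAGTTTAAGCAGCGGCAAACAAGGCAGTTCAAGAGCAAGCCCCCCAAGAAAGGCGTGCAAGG
The shortened isoform made up 6.25% of Pde6g counts in rods, 7.91% in cones, 7.67% in AC, 5.94% in BC and 3.70% in MG. The cone share was 1.66 points above the rod share (1.496 to 1.82) and the MG share was lower than it by 2.55 points (the difference of MG minus rods was -2.81 to -2.27).

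The channel genes were led by Cngb1. Cnga1 encodes the subunit that forms the pore and binds cGMP (ENSMUSG00000067220.12, chr5:72603696-72644275, minus strand). It stood at 149.7 CPM in rods, 5.20 in cones, 4.89 in MG, 2.93 in BC, 1.45 in AC and 0 in RGC, 28.8-fold higher in rods than in cones. The annotated 9-exon form with 684 codons had 7963 counts. An unannotated 5-exon form with 561 counts joined exon 4 to exon 7, leaving out exons of 111 nt and 42 nt. Its junction is shown with the bases of exon 7 in capitals (chr5:72610897-72616741, minus strand).
Cnga1 exon 4 to exon 7: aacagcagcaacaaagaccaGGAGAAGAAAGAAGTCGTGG
The model ended within exon 7 with no stop codon, and it was 6.47% of Cnga1 counts in rods. Its share was 14.3% in AC (10 of 70 counts), 7.82 points above rods (1.46 to 17.9). The shares of 10.6% in BC, 13.3% in MG and 2.63% in cones rested on 30 to 85 counts, and the intervals of their differences from rods included 0.

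Cngb1 encodes the regulatory channel subunit, and the same locus is known to give shorter glutamic acid-rich proteins (GARPs) from its upstream exons (ENSMUSG00000031789.17, chr8:95239045-95306585, minus strand). It stood at 1168 CPM in rods, 161 in BC, 91.8 in MG, 57.6 in cones, 9.99 in AC and 0 in RGC. BC was the next column, at 7.27-fold below rods. Only short forms with 13 exons were listed: ENSMUST00000093268.4, with 326 codons and 44947 counts, and an unannotated form with 327 codons and 25921 counts. The 33-exon annotated transcript with 1325 codons, which encodes the full channel subunit, had no isoform in the table, so the Cngb1 level describes the short forms and not the channel subunit.

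The pair of Cngb1 forms differed by 3 bases at the acceptor of exon 6, in capitals below (chr8:95299497-95299680, minus strand).
Cngb1 short form: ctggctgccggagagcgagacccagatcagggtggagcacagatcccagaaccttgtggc
Cngb1 long form: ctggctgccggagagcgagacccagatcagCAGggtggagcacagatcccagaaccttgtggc
The form that includes CAG made up 35.9% of Cngb1 counts in rods, 46.3% in BC, 42.8% in MG, 39.0% in cones and 30.1% in AC. BC exceeded rods by 10.4 points (8.94 to 11.9). With every column thinned once to equal depth, the short form was 63.6% in rods and 57.5% in BC (53.2% to 61.8%, 530 counts). That gap was under 10 points, but the BC interval of this 1 draw includes the 53.7% of the full counts. Acceptor pairs 3 nt apart, as in Gnb1 and Cngb1, occurred in 5.46% of the 7826 genes with comparable isoforms.

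Sag encodes rod arrestin, also called S-antigen (ENSMUSG00000056055.13, chr1:87803680-87845158, plus strand). It stood at 9645 CPM in rods, 5351 in cones, 869.7 in MG, 216 in BC, 55.5 in AC and 0 in RGC. Cones thus held 55.5% of the rod level, the highest share of any member in a column other than rods. The gene had 4 isoforms of 16 exons each, and they varied at 2 places.

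The first variable place was exon 15, where a 10-nt exon (chr1:87844112-87844121) or a 9-nt exon (chr1:87844869-87844877) joined exon 14 to exon 16. The exon is in capitals below, within chr1:87840824-87844938 on the plus strand. The deposited 9-nt models begin the last exon at 87844915, 1 base after the annotated 9-nt transcript.
Sag exon of 10 nt: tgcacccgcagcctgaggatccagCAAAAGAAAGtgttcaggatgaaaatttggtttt
Sag exon of 9 nt, annotated: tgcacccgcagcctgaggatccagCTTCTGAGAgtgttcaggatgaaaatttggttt
Sag exon of 9 nt, deposited: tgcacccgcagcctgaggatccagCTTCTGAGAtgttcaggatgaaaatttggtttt
The annotated 10-nt form ENSMUST00000077772.11 encodes 403 codons and had 178536 counts. The most abundant isoform, an unannotated 9-nt form with 325422 counts, read 383 codons as deposited, a frame that depends on that 1 base. The 10-nt exon made up 37.1% of Sag counts in rods and 58.2% in cones, a difference of 21.1 points (20.6 to 21.6). Its share was 42.3% in BC, 39.5% in MG and 34.9% in AC, so cones alone lay more than 10 points from rods. The 9-nt models start at 87803808 or 87803812 and the 10-nt models at 87803922. The share of the 10-nt exon is therefore also the share of the models with the later start. A difference at exon 15 cannot be told apart from a difference in the start.

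The second variable place was exon 11, which was 2 nt shorter in the isoforms with 48319 and 35823 counts. The bases concerned are in capitals (chr1:87828450-87831860, plus strand).
Sag exon 11 long: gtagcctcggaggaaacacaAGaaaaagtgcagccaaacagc
Sag exon 11 short: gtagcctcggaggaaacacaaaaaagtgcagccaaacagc
The shorter exon closed the frame after 285 codons. It made up 14.1% of Sag counts in rods, 16.7% in cones, 14.8% in BC, 14.8% in MG and 14.4% in AC. Acceptor pairs 2 nt apart occurred in 0.166% of the 7826 genes, of which Sag was 1 of 13. The bases left out sit just before a run of A. All 15 junctions of the isoform with 48319 counts, including that of the shorter exon 11, are annotated.

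**Figure D2:**
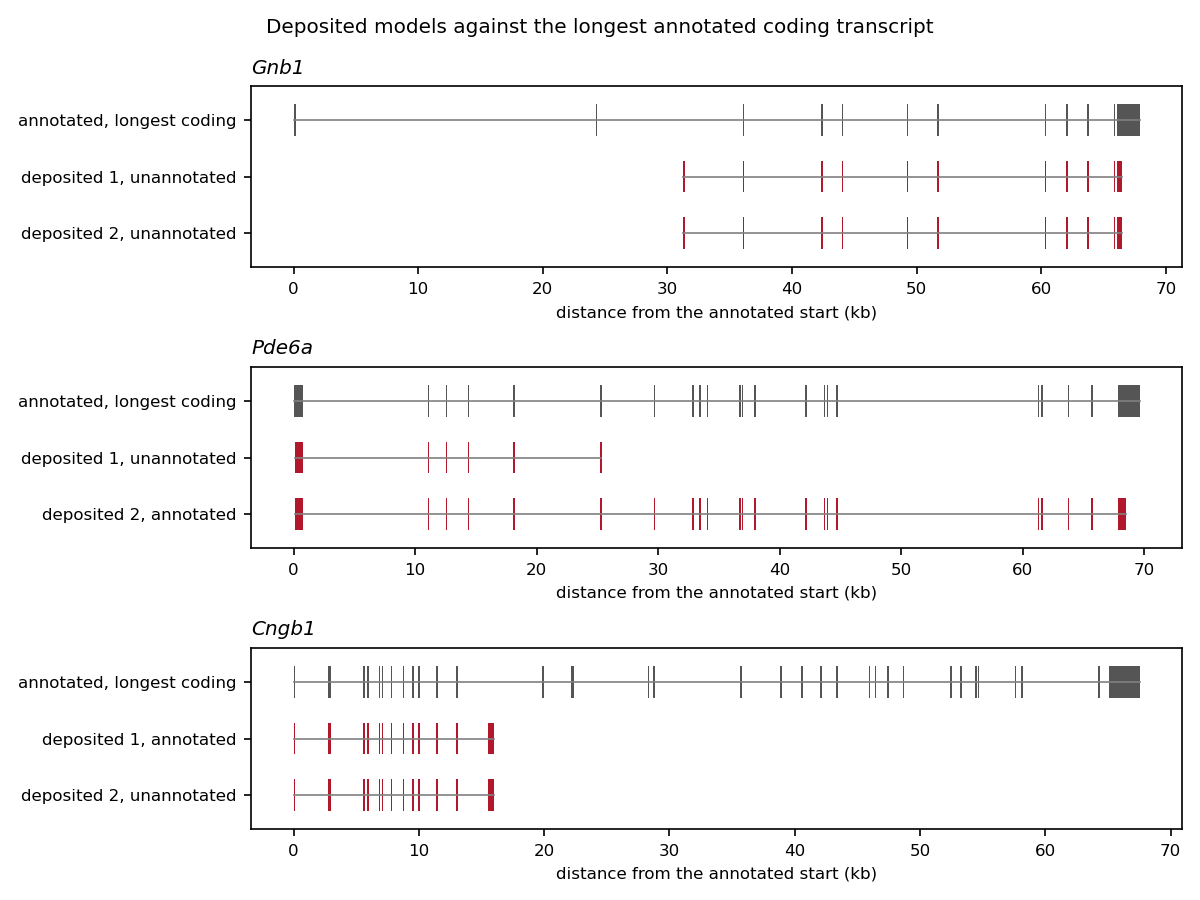
Deposited isoform models of Gnb1, Pde6a and Cngb1 (red) under the annotated transcript with the longest coding sequence (grey), with distance from the annotated start in kilobases. Boxes are exons (drawn at least 0.12 kb wide) and lines introns. The Gnb1 models begin downstream of the first exons of the annotated transcript, the shorter Pde6a model stops after 6 exons, and both Cngb1 models end after 13 exons.

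Across the members with 2 or more isoforms, 5 had at least 100 counts in rods and in the column compared. A shift of at least 10 points in the share of any isoform was seen for 1 of 5 in BC (Cngb1), against 41.4% of all such genes, and for 1 of 5 in cones (Sag), against 24.0%. It was seen for 0 of 5 in MG, against 36.0%, and for 0 of 5 in AC, against 54.8%. For RGC, where 48.4% of genes shifted, no member had enough counts to compare. In none of these 4 columns did the members exceed the share for all genes.

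**Figure D3:**
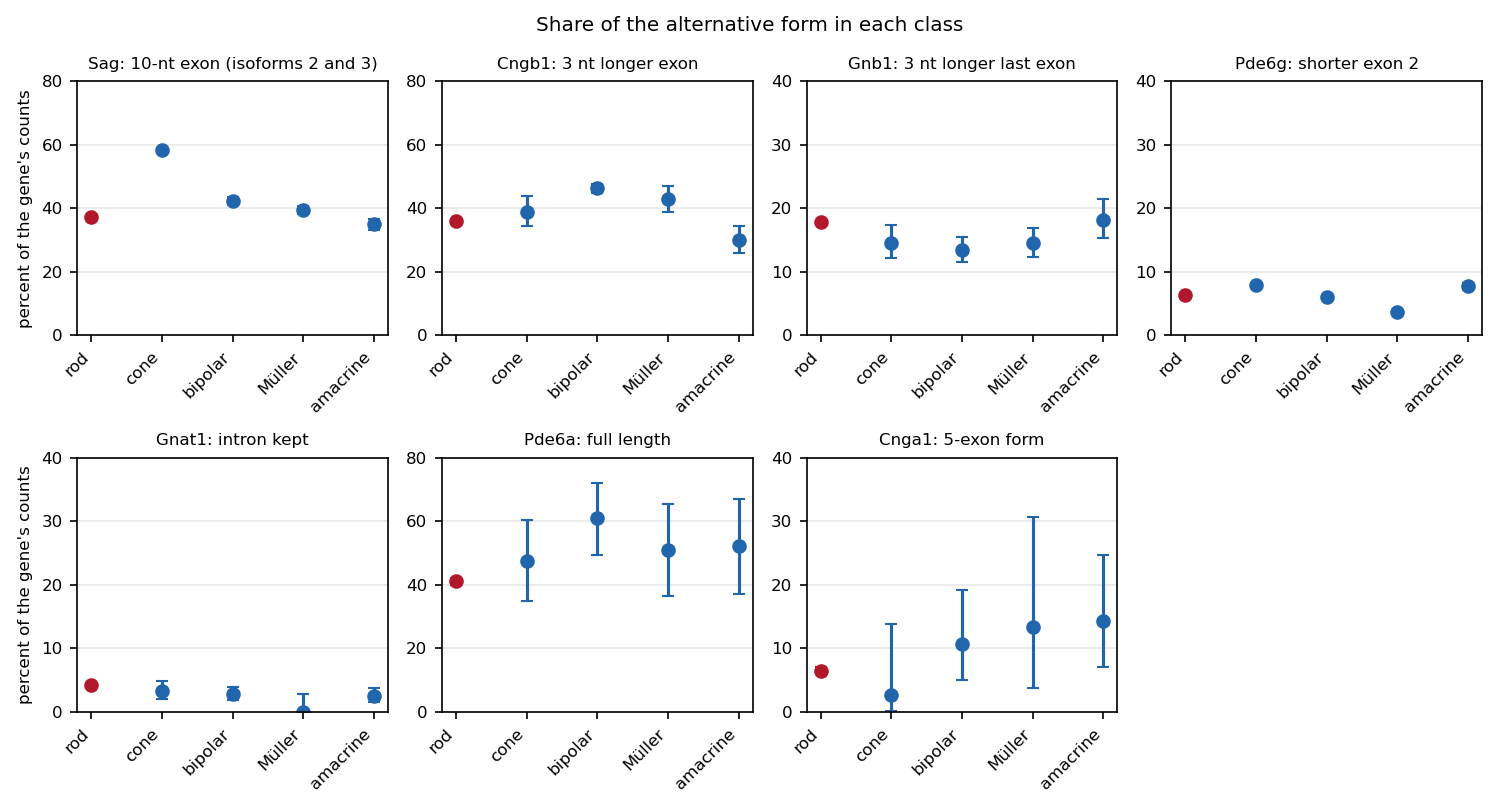
Isoform or exon shares of the members by class, in percent of the gene's counts, with 95% Clopper-Pearson intervals. The 10-nt exon of Sag is at 37.1% in rods and 58.2% in cones, and the longer Cngb1 form is at 35.9% in rods and 46.3% in BC.

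Of the 18 isoforms, 10 were annotated and 8 were not, beside 21507 unannotated models among all 44325 isoforms listed. The cascade's unannotated isoforms held 9.87% of its counts, and the same share over all genes was not computed. The most abundant isoform was unannotated for 3 of 9 genes (Gnb1, Pde6a and Sag), against 31.8% of all genes. An annotated coding sequence was kept by 100% of the counts of Gnb1, Gngt1 and Pde6b, 95.8% for Gnat1, 93.7% for Pde6g and 93.4% for Cnga1. The share was 63.4% for Cngb1, 41.5% for Pde6a and 30.4% for Sag. The Cngb1 counts left out were of the 327-codon form, which ends at the same stop codon as the 326-codon form. Among the Sag counts left out were the 325422 of its most abundant isoform. Its frame depends on the 1 base by which its deposited last exon differs from the annotated one.

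Outside rods, the cascade's median was close to that of the 4 rod markers in AC, BC, MG and cones, while single members and markers were far from it. In AC, members stood at 0.554% to 0.969% of their rod level, with a median of 0.656%, beside 0.521% for the 4 rod markers. In BC the median was 2.11%, beside 2.04%, but Gngt1 stood at 14.3% and Cngb1 at 13.8%. In MG the median was 7.44%, beside 7.37%, with members from 0.984% (Gnat1) to 11.6% (Gngt1).

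In cones the members split into 2 sets. Sag at 55.5%, Pde6g at 49.9% and Gngt1 at 49.0% of the rod level stood apart from the other 6, which ran from 2.53% (Pde6b) to 6.84% (Pde6a). The cascade's median in cones was 5.22%, and that of the rod markers was 4.82%. Reep6 stood at 1.38% in BC, 1.82% in MG, 3.89% in AC and 5.36% in cones. Esrrb had few counts, 211 in rods and 5 in MG, where it stood at 21.4% of its rod level (6.88% to 50.8%). Its 0 counts in AC and cones allow up to 2.03% and 13.4% of the rod level. The ratio of the highest to the lowest member was 22.0 in cones, 11.8 in MG, 9.29 in BC and 1.75 in AC. Genes of at least 100 CPM in rods had a median of 95.7% of the rod level in cones.

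**Figure D4:**
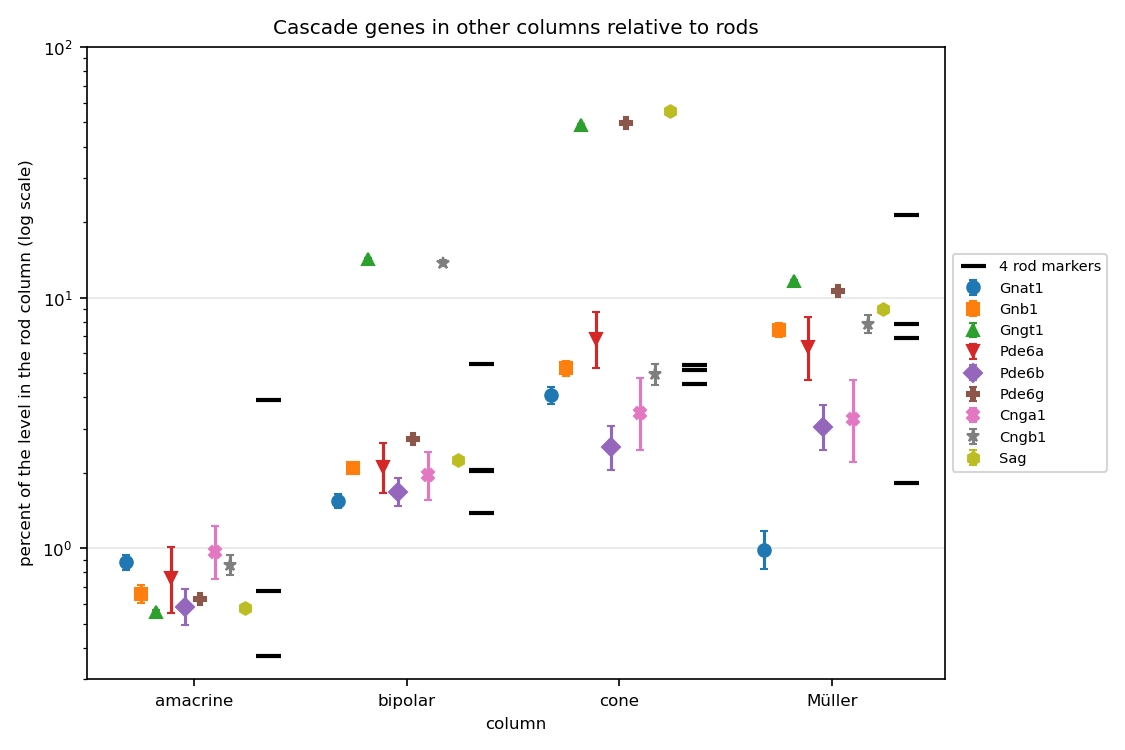
Level of each member in AC, BC, cones and MG as a percent of its rod level, on a log axis with 95% intervals, with the 4 rod markers as black bars (Esrrb, at 0 in AC and cones, is not drawn there). Sag, Pde6g and Gngt1 are near 50% in cones and the other 6 members are below 7%.

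The balance of subunits within rods was read in counts, the main measure, and per kilobase of the most abundant model. Per kilobase of that model, the rod level was 102943 CPM for Gngt1, 1400 for Gnb1 and 996 for Gnat1. On this scale the γ level was 103-fold and the β level 1.41-fold the α level. In counts, without length, Gngt1 was 20.1-fold above Gnat1, and Gnb1 was at 0.907 of Gnat1 (0.900 to 0.915). The order of Gnb1 and Gnat1 therefore depends on length. Pde6g stood at 33331 CPM per kilobase, Pde6b at 194 and Pde6a at 108. In counts, Pde6g was 57.7-fold above Pde6b and 238-fold above Pde6a. The Pde6b to Pde6a ratio was 1.79 per kilobase and 4.13 in counts, and the Pde6a length used here is that of its 6-exon model. Cngb1 stood at 780 CPM per kilobase, 14.3-fold above Cnga1 at 54.7. In counts the ratio of Cngb1 to Cnga1 was 7.80, and both ratios have the short forms alone in the numerator.

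Each rod gene was set beside its cone paralogue in counts, the main measure, and per kilobase of the most abundant model. All Cngb1 counts came from its short forms, so the pair of Cngb1 and Cngb3 does not compare channel subunits. In rods the rod gene was higher in 9 of 9 pairs on both scales, and Cnga3 had 0 counts there. Per kilobase, the ratio ran from 15.2-fold for Pde6g over Pde6h to 6265-fold for Cngb1 over Cngb3. In counts it ran from 16.9-fold for Gnb1 over Gnb3 to 4624-fold for Cngb1 over Cngb3. In cones the rod gene was higher in 3 of 9 pairs on both scales. Per kilobase, Gngt1 was 16.3-fold above Gngt2, Sag 10.7-fold above Arr3 and Cngb1 3.19-fold above Cngb3. In counts these ratios were 12.8, 12.9 and 2.35. The other 6 favoured the cone gene on both scales. Per kilobase, the ratio was 0.0239 for Gnb1 to Gnb3, 0.0452 for Gnat1 to Gnat2 and 0.0869 for Pde6b to Pde6c. It was 0.132 for Pde6a to Pde6c, 0.148 for Pde6g to Pde6h and 0.488 for Cnga1 to Cnga3. In counts the ratio ran from 0.0226 for Gnb1 to Gnb3 to 0.376 for Cnga1 to Cnga3. The rod gene was higher in 9 of 9 pairs in MG, 8 in AC and 6 in BC, on either scale. In BC the order of 2 pairs depended on length: Pde6a to Pde6c was 2.31 per kilobase and 0.906 in counts, and Pde6g to Pde6h was 0.952 per kilobase and 1.54 in counts. The Pde6a length was that of its 6-exon model, although the complete form made up 61.0% of Pde6a counts in BC. In BC, Gnb1 as listed stood at 0.0163 of Gnb3 per kilobase and 0.0155 in counts. The Gnb1 level in these pairs covers only models that begin downstream of the gene's first annotated start.

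**Figure D5:**
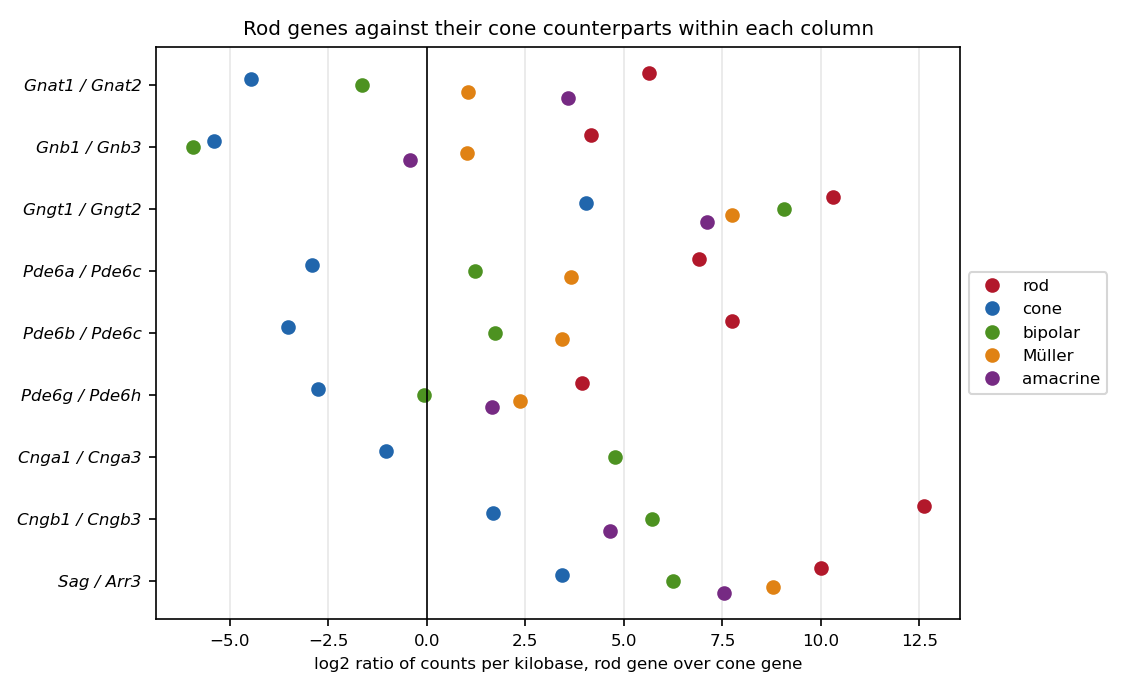
log2 ratio of counts per kilobase, rod gene over cone paralogue, for each pair and class. All rod points are above 0 (Cnga1 to Cnga3 is not drawn in rods, where Cnga3 had 0 counts), and the cone points of 3 pairs (Gngt1, Sag and Cngb1) are above 0 as well. The Cngb1 counts are of its short forms alone.

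Other genes of the pathway varied more. Of 14 listed genes for deactivation, calcium feedback, cGMP synthesis and protein trafficking, 13 were in the table, 9 were highest in rods and 4 were at least 2-fold above every other column. The 4 most abundant in rods were Pdc, phosducin, which binds transducin βγ (19831 CPM), Rcvrn, recoverin, a calcium sensor (14696 CPM), Unc119, which carries the transducin α subunit (11774 CPM), and Guca1a, a guanylate cyclase activator (10507 CPM). In cones these stood at 34.6%, 68.1%, 57.3% and 144% of their rod level. The genes past the 2-fold line, named after their values were seen, were Guca1b, another cyclase activator (11.5-fold), Pdc (2.89-fold), Slc24a1, the rod sodium-calcium-potassium exchanger, and Gucy2f, a photoreceptor guanylate cyclase. Slc24a1 and Gucy2f had 0 counts in RGC, the column with the highest limit, so their rod levels of 15.98 and 3.36 CPM were at least 18.7-fold and at least 3.93-fold higher than the level of 3 counts there. Guca1a, Pde6d and Aipl1, also named after their values were seen, were highest in cones. The median ratio of the rod level to the highest other column was 1.55 for these 13 genes, 13.4 for the cascade and 0.382 for all genes, with columns under 3 counts set to 3. Of 7 β and γ subunits of other G proteins, 1 (Gnb5) was highest in rods, and their median ratio was 0.0256. All 10 listed cone genes were highest in cones, against 1126 of the 13393 genes with at least 10 counts. These 10 include the 6 cone markers already counted above.

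The genes whose profile over the 6 columns lay nearest to the cascade's median profile, of 5226 with at least 1000 counts, included Nr2e3 (distance 0.00544) and Nrl (0.0156), which encode rod transcription factors. Sh2d1a (0.0129) and Aqp1 (0.0182) were also among them. With Pearson correlation of log2(CPM + 1) in place of this distance, 1 of the 5 nearest genes was kept. The 6 points share the same pooled columns, so this is a description. Nr2e3 stood at 1094 CPM in rods, 75.2 in MG, 56.0 in cones, 22.3 in BC, 4.06 in AC and 0 in RGC.

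RefSeq promoters (GRCm38.p6, 250 bases before to 50 after each start) matched 6 of the 9 genes: Sag, Gnb1, Cnga1, Pde6b, Gngt1 and Cngb1, leaving Gnat1, Pde6a and Pde6g. The letters TAATCC, or GGATTA on the other strand, form the core of sites for the photoreceptor factor CRX. They were in 4 of the 6 (Cnga1, Cngb1, Gngt1 and Sag), against 7.06% of 32851 promoters. The letters TGCTGA, or TCAGCA, which occur in sites of the rod factor NRL, were in 2 of the 6 (Pde6b and Sag), against 19.5%. No match of one motif overlapped a match of the other. For 3 genes, the 150 bases before the RefSeq start are shown with matches in capitals, at chr8:95306586-95306735 (minus strand), chr1:87803530-87803679 and chr5:108388223-108388372 (both plus).
Cngb1 promoter: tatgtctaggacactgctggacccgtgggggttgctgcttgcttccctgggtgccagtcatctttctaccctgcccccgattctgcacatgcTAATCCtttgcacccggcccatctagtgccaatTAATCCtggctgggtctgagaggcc
Sag promoter: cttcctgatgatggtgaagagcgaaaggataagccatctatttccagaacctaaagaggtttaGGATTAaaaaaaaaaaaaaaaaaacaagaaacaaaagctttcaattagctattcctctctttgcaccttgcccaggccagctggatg
Pde6b promoter: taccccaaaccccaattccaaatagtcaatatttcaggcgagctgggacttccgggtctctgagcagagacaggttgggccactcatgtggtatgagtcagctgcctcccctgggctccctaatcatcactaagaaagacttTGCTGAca
The matches begin 58 and 25 bases before the start in Cngb1, 87 bases before it in Sag on the opposite strand, and 8 bases before it in Pde6b. The TGCTGA match of Sag lies 187 bases before the start, upstream of the printed stretch. The deposited isoforms begin 15 bases after the RefSeq start for Cngb1, 53 bases for Pde6b and 128 to 242 bases for Sag. They begin at the RefSeq start for Cnga1 and Gngt1, and 31275 bases after it for Gnb1, whose window is therefore not at the start of its deposited models.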

How the data were processed

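The authors deposited 1 table of whole-number read counts per isoform in 6 pooled class columns, together with isoform models as exon coordinates, per the file headers. The build is mm10, per the submitters' processing notes, and 94.4% of the models' junctions matched GENCODE M21. How classes were assigned, how reads were counted, and how free RNA or doublets were treated is not given in the sources used here. Isoform counts were summed per Ensembl gene, divided by the column total and scaled to CPM. Intervals were exact Poisson for levels, Clopper-Pearson for shares, conditional binomial for ratios and Newcombe for differences of shares. Genes entered comparisons with at least 10 counts, and shares with at least 100 counts in both columns. Per-kilobase levels used the length of the gene's most abundant model. Reading frames were read from M21 transcripts, from the annotated start codon. Scaling alternatives (trimmed mean of M-values, TMM, and median of ratios) were computed from gene sums in Python 3.11.15 with numpy 2.4.6 and scipy 1.17.1, with no test. The scripts were tested on simulated data, where 200 of 200 changed genes were recovered at 4-fold among 5226 genes and 0 unchanged genes were called. The members, the gene lists and the rule for naming genes (all 9 members with up to 4 isoforms each, the 10 cone paralogues, up to 4 pathway genes by counts in rods, and the 5 genes nearest in profile) were chosen with earlier results of these data known. Of those 5 nearest genes, 1 is not reported here.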

Additional observations from a re-analysis of the deposited data

How the results depend on the processing

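Of 80 alternative values for 33 results, 57 stayed within the main value's interval or, for counts, within 1.5 times the main count, 22 moved further and 1 changed direction: Gnb1 to Gnat1 in rods was below 1 in counts (0.907) and above 1 per kilobase (1.41). Among the counts, genes at least 2-fold above every other column went from 8 to 7 (TMM, equal depth) and 6 (median of ratios), and BC pairs with the rod gene higher from 6 to 7 (most abundant isoforms). The median-of-ratios scaling changed the total by which counts were divided, by 0.13 on the log2 scale in rods and -0.13 in cones. This scaling therefore lowered rod levels and raised cone levels. Under it the 2-fold steps of Gngt1 and Pde6g over cones fell to 1.70 and 1.67, and the median percent of the rod level rose to 6.25 in cones and 9.69 in MG. Under TMM, Pde6g was at 1.99-fold. With annotated isoforms only, the median was 0.751% in AC, 2.64% in BC and 6.31% in cones. Counting parts of annotated chains as annotated gave an unannotated share of 9.79%. At equal depth, in 1 draw, the most abundant isoform made up 95.9% for Gnat1, 91.2% for Cnga1, 63.6% for Cngb1 and 57.1% for Sag in rods, and 57.5% for Cngb1 in BC. At 25 points, 0 members shifted, and the share of all genes was not computed there. At 20 counts 3 members shifted (Pde6a in addition). By column these were 1 of 7 in AC, 2 of 7 in BC, 1 of 7 in cones and 0 of 7 in MG. The shares of all genes were 65.3%, 53.7%, 40.5% and 49.6%. Subunit ratios per kilobase and by most abundant isoform were 1.41 and 0.779 for Gnb1 to Gnat1, 103 and 20.96 for Gngt1 to Gnat1, 1.79 and 7.0002 for Pde6b to Pde6a, 307 and 378 for Pde6g to Pde6a, and 14.3 and 5.35 for Cngb1 to Cnga1. With Pearson correlation, 1 of the 5 nearest genes was kept, and with genes from 100 counts 4 were. No paired analysis was possible because each class column sums all libraries, and leaving out a library could not be run for the same reason. At 0 counts in RGC, the upper 95% limit ran from 0.00350% of the rod level for Pde6g to 0.834% for Pde6a, and it reached the 0.554% to 0.969% seen in AC for Pde6a and Cnga1 (0.702%) only.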

Other observations

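The 2-nt shorter exon 11 of Sag was read within each choice of exon 15. Among isoforms with the 10-nt exon it made up 21.3% in rods, 21.4% in cones, 21.1% in BC, 22.7% in MG and 22.6% in AC. Among isoforms with the 9-nt exon it made up 9.91% in rods, 10.0% in cones, 10.1% in BC, 9.60% in MG and 9.98% in AC. Within each choice the cone share differed from the rod share by 0.149 points (-0.409 to 0.716) and 0.0950 points (-0.367 to 0.575), while the overall cone share was 2.53 points higher (2.15 to 2.91).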
